A study of Homo sapiens with 6 samples.

Results

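The enzymes of serine synthesis and of the folate one-carbon cycle were examined in NALM6 cells, a human line derived from acute lymphoblastic leukemia of B cell precursors. The members were 9 genes chosen by name: PHGDH, PSAT1 and PSPH of serine synthesis, SHMT1 and MTHFD1 of the cytosol, and SHMT2, MTHFD2, MTHFD1L and SLC25A32 of the mitochondria. Each was found by its symbol and Ensembl identifier among the 57905 genes of the count table, and all 9 were among the 16622 genes with enough counts to be tested. RNA-SEQ was performed on 3 libraries of NALM6 cells treated with DMSO, the solvent, and on 3 libraries treated with 500 nM of THZ1, a covalent inhibitor of the transcription kinase CDK7, each for 24 h. NALM6 is a single leukemia cell line, and the labels name no engineered allele for either group. The labels do not say whether the libraries of a treatment came from separate cultures, so the p-values measure the spread between these libraries, which may be technical.

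Cells make serine from the glycolytic intermediate 3-phosphoglycerate. PHGDH oxidises it, PSAT1 transaminates the product, and PSPH removes the phosphate. SHMT1 in the cytosol and SHMT2 in mitochondria then split serine into glycine and a carbon unit, which is carried by tetrahydrofolate. In mitochondria MTHFD2 and MTHFD1L take this unit on to formate, which leaves for the cytosol, where the trifunctional MTHFD1 loads it back on folate for the synthesis of purines, thymidylate and methionine. SLC25A32 imports folate into mitochondria. Dividing leukemia cells depend on this supply for nucleotides, and drugs of the antifolate class act on it. The question of the comparison was which steps of this route changed at the RNA level in THZ1-treated cells.

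THZ1-treated NALM6 cells had less RNA of 8 of the 9 members than DMSO-treated cells, relative to the other RNA of each library. The first enzyme of serine synthesis, PHGDH, was the exception. MTHFD1 had the largest fall among the members, by 10.1-fold, and MTHFD2 and MTHFD1L followed with 3.91-fold and 3.46-fold. PSAT1, SLC25A32, PSPH and SHMT1 fell by between 2.76-fold and 2.10-fold, and SHMT2 fell by 1.60-fold. A gene was called at an adjusted p-value below 0.05 in the quasi-likelihood test of edgeR, with p-values adjusted by Benjamini-Hochberg over the 16622 genes. By this rule 8 of 9 members were lower and 0 were higher, whereas 41.1% of all genes tested were lower and 43.5% were higher. At an unadjusted p-value below 0.05, 0 members were higher in edgeR with TMM factors, in DESeq2 and in limma on FPKM (pseudocount 1, minimum mean 0.1). In edgeR with upper quartile factors PHGDH was called higher, with a log2 fold change of 0.20 (adjusted p = 0.0117). When a log2 fold change of 1.5 or more in either direction was also required, 3 members were lower and 0 higher, against 12.9% of all genes lower and 24.6% higher. PSAT1, SLC25A32 and PSPH lay just under this fold. The count was 3 with RLE and with upper quartile factors as well, but 6 with library sizes alone, with no filter and in limma on FPKM, 5 without THZ1 replicate 1 or without THZ1 replicate 2, and 4 without DMSO replicate 2 or without DMSO replicate 3. The THZ1-treated libraries all lay below the DMSO-treated libraries for 8 of 9 members, as they did for 41.3% of all genes tested. The median log2 fold change was −1.46 over the members and 0.03 over all genes tested. In bulk RNA, fewer cells of a type and less RNA per cell cannot be told apart. The levels are shares of a library, so a change in the total RNA of a cell would not be seen. An unchanged share, as for PHGDH, does not show an unchanged amount per cell.

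**Figure D1:**
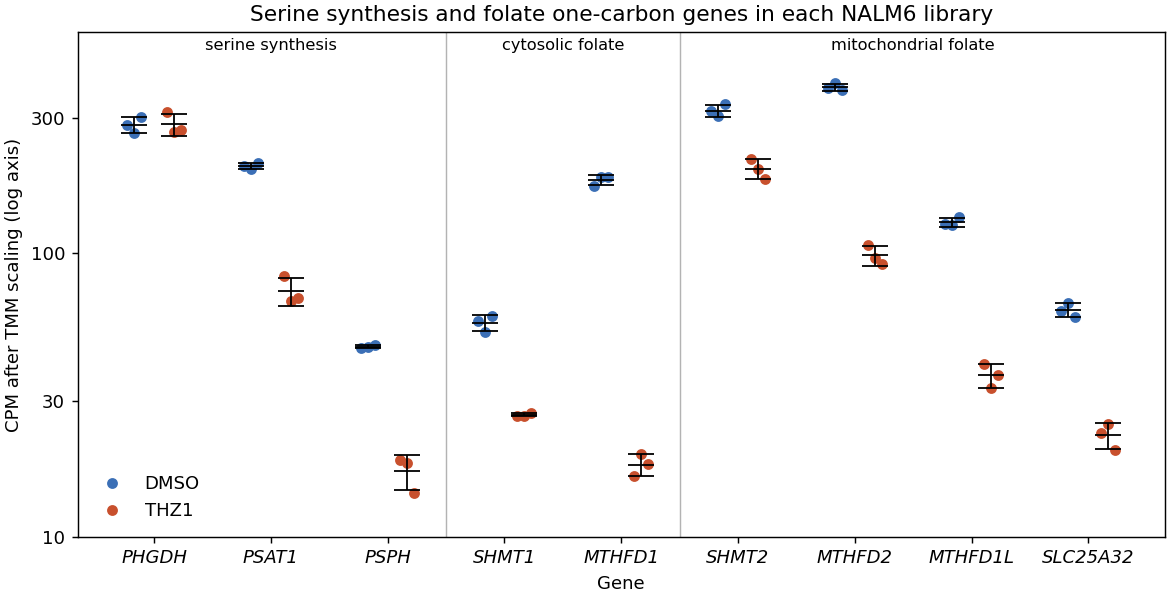
Level of each of the 9 members in every library, in CPM (counts per 1000000 counts of the library after TMM scaling) on a log axis, with DMSO-treated and THZ1-treated libraries as points and bars for the mean ± SD (n = 3). The groups overlap for PHGDH, with means of 283 and 284 CPM, and are apart for the other 8 members.

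The libraries held 11015480 to 11164840 counts on genes in DMSO-treated cells and 7876402 to 8314306 in THZ1-treated cells. Levels are given in CPM, counts per 1000000 counts of the library after TMM scaling. The lowest count of any member in any library was 107, for PSPH in THZ1 replicate 3, and the highest was 4838. Mitochondrially encoded genes held 4.32% to 4.37% of the counts in DMSO-treated libraries and 12.6% to 13.6% in THZ1-treated libraries, and the part of this shift in the members' values was not tested beyond a fit without those genes, in which 8 members were again lower. Each of 8 B cell precursor markers reached at least 67.3 CPM in every library, with a summed level of 2604 to 2689 CPM in DMSO-treated and 1454 to 1539 CPM in THZ1-treated libraries. The summed level of 8 markers of other cells was 7.70 to 8.85 CPM against 26.2 to 28.1 CPM. Of these 8, the fibroblast marker COL1A1 was the highest at up to 16.1 CPM and rose with the myeloid marker CD14. LYZ was called lower at low levels, and its groups overlapped, with 2.65, 3.03 and 1.77 CPM against 0.920, 0.969 and 2.27 CPM. MPO was not called, and CD3D, CD3E, HBB and EPCAM had at most 3 counts in any library. Their part in the results was not tested.

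The members of serine synthesis did not move together. PHGDH (ENSG00000092621, GRCh37 chr1:120191034-120286841) had 282, 265 and 302 CPM in the DMSO-treated libraries and 313, 268 and 272 CPM in the THZ1-treated libraries. The groups overlapped, with means of 283 ± 18.8 and 284 ± 25.1 CPM (SD, n = 3). The log2 fold change was 0.01 (SE 0.07), with a 95% interval from −0.14 to 0.15 and an adjusted p of 0.93 by edgeR's quasi-likelihood test. On the linear scale this interval ran from 0.907-fold to 1.11-fold. The value followed the scaling of the libraries: it was 0.20 (adjusted p = 0.0117) with edgeR and upper quartile factors and −0.24 (adjusted p = 0.00214) with edgeR and library sizes alone. These scalings moved the median of all genes by 0.19 and −0.25, and the difference between PHGDH and that median was −0.02 under each of them and with TMM. Where the set of genes tested changed, this difference changed as well, to −0.53 with no filter and 0.17 with at least 10 counts in every library. Without DMSO replicate 2 it was −0.12. With TMM, 49.4% of genes tested lay below PHGDH in log2 fold change.

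PSAT1 (ENSG00000135069, chr9:80912041-80945009) had 202, 198 and 208 CPM in DMSO-treated cells and 83.1, 68.0 and 69.5 CPM in THZ1-treated cells. Every THZ1-treated library was below every DMSO-treated library, and the means were 203 ± 5.11 and 73.5 ± 8.33 CPM (SD, n = 3). The log2 fold change was −1.46 (SE 0.08, adjusted p = 2.5e-17, edgeR). PSPH (ENSG00000146733, chr7:56078744-56119297, minus strand), which completes the synthesis, had 46.2, 46.6 and 47.3 CPM against 18.7, 18.1 and 14.3 CPM. The PSPH groups were apart as well, at 46.7 ± 0.578 and 17 ± 2.38 CPM (SD, n = 3). Its log2 fold change was −1.45 (SE 0.11, adjusted p = 1.3e-13, edgeR), close to that of PSAT1. No other annotated gene overlapped PHGDH, PSAT1 or PSPH in GENCODE 44.

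Both cytosolic folate enzymes fell, to different extents. MTHFD1 (ENSG00000100714, chr14:64854749-64930175) had 172, 185 and 186 CPM in DMSO-treated libraries and 16.3, 19.5 and 18.0 CPM in THZ1-treated libraries. The group means were 181 ± 7.72 and 18.0 ± 1.61 CPM (SD, n = 3), so 9.92% of the DMSO level remained. The log2 fold change of −3.33 (SE 0.09, adjusted p = 7.9e-25, edgeR) was exceeded by few genes, since 1.18% of genes tested were lower. SHMT1 (ENSG00000176974, chr17:18231174-18266877, minus strand) had 57.7, 52.7 and 59.7 CPM against 26.7, 26.7 and 27.4 CPM. The SHMT1 groups did not overlap, and the log2 fold change was −1.07 (SE 0.09, adjusted p = 6.0e-12, edgeR).

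All 4 mitochondrial members fell. MTHFD2 (ENSG00000065911, chr2:74413299-74444692), the mitochondrial dehydrogenase and cyclohydrolase, had 381, 397 and 375 CPM in DMSO-treated cells. It had 107, 96.3 and 91.3 CPM in THZ1-treated cells. The means were 384 ± 11 and 98.2 ± 7.96 CPM (SD, n = 3), and the log2 fold change was −1.97 (SE 0.07, adjusted p = 2.1e-21, edgeR). MTHFD1L (ENSG00000120254, chr6:151186815-151423023), which releases formate, had 126, 125 and 134 CPM against 40.6, 33.4 and 37.2 CPM. Its groups were likewise apart, with a log2 fold change of −1.79 (SE 0.09, adjusted p = 1.2e-18, edgeR).

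SHMT2 (ENSG00000182199, chr12:57623356-57628718), which supplies the carbon unit in mitochondria, had the smallest fall of the 8 members that fell. Its level was 316, 303 and 334 CPM in DMSO-treated libraries and 214, 198 and 183 CPM in THZ1-treated libraries. The groups did not overlap, and the log2 fold change was −0.68 (SE 0.07, adjusted p = 2.5e-10, edgeR). The folate carrier SLC25A32 (ENSG00000164933, chr8:104410863-104427417, minus strand) had 62.7, 66.6 and 59.5 CPM against 23.1, 25.1 and 20.2 CPM. All THZ1-treated libraries were lower, with a log2 fold change of −1.46 (SE 0.10, adjusted p = 1.1e-14, edgeR).

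**Figure D2:**
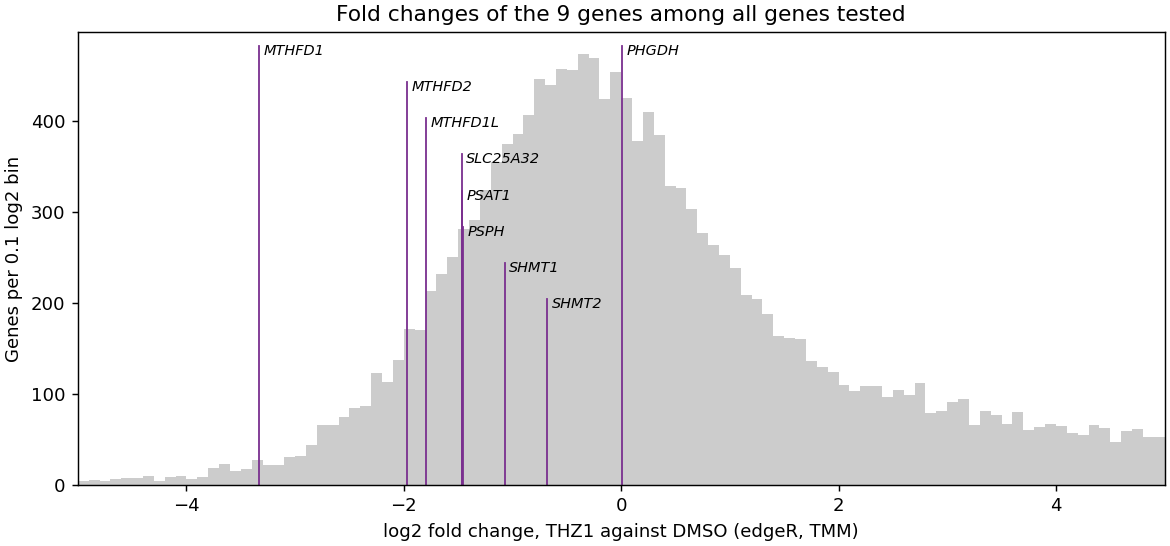
Log2 fold changes (THZ1 over DMSO) of the 16622 genes tested, drawn as a histogram of genes per bin, with the 9 members marked by vertical lines whose heights have no meaning. MTHFD1 at −3.33 lies farthest to the left of the members and PHGDH at 0.01 lies near the median of all genes, 0.03. Of all genes, 1077 lie outside the range drawn.

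Exons of SHMT1, MTHFD1, SHMT2, MTHFD2 and SLC25A32 overlap annotated genes on the opposite strand, and whether the counting used strand is not given in the sources used here, so reads of such pairs may not be told apart. SMCR8, opposite SHMT1, had 136, 183 and 76 counts in DMSO-treated libraries and 562, 545 and 529 in THZ1-treated libraries, the reverse of SHMT1. NDUFA4L2, opposite SHMT2, also went the other way, from 70, 39 and 54 counts to 495, 404 and 460. DCAF13, opposite SLC25A32, fell with it from 1242, 1356 and 1350 counts to 256, 247 and 268. ENSG00000264324, opposite MTHFD2, had 1726, 1742 and 1703 counts and then 204, 193 and 176. Opposite MTHFD1, the lncRNA ENSG00000272909 had 341, 334 and 306 counts and then 21, 12 and 11, whereas the protein-coding ZBTB25 had 567, 566 and 534 counts and then 314, 284 and 311. These raw counts carry no correction for depth. The annotated pseudogene copies of the members held at most 2 counts in any library. These counts do not show how reads that match both a member and a copy were treated.

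The bases before the start of transcription are shown for MTHFD1, MTHFD1L and PHGDH. MTHFD1 and MTHFD1L are the members in which a motif named below was found, so they do not stand for all members that fell. Sequences were taken from RefSeq (GRCh38.p14), in which 6 of the 9 members were matched, with 9 windows of 250 bases before to 50 bases after a start; PSPH, SHMT2 and SLC25A32 were not matched. CACGTG, the E-box to which MYC with its partner MAX is known to bind, and TGATGNAA, a form of the element bound by ATF4 with its partners, were searched on both strands. Capitals mark these motifs in the bases before the start, printed 5′ to 3′ on the plus strand for MTHFD1 at chr14:64388103-64388352, MTHFD1L at chr6:150866236-150866485 and PHGDH at chr1:119711684-119711933.
MTHFD1: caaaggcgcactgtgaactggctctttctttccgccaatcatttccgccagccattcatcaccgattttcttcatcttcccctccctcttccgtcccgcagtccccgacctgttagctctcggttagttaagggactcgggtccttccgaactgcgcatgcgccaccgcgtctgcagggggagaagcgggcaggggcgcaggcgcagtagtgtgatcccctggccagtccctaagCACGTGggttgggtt
MTHFD1L: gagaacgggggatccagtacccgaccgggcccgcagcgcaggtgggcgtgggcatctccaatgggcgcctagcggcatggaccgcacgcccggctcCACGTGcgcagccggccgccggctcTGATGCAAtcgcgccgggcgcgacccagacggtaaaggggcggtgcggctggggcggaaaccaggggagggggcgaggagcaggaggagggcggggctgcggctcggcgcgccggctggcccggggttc
PHGDH: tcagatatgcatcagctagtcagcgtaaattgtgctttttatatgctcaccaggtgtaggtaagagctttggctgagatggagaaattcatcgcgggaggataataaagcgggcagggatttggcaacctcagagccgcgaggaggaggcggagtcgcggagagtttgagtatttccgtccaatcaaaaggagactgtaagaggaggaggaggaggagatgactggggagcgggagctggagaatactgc

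MTHFD1, with the largest fall among the members, held a CACGTG 15 bases before its start. MTHFD1L held a CACGTG 154 bases before and a TGATGCAA 129 bases before the start of the window shown, and 2 overlapping windows held the same letters, while the window of its start farther downstream held neither motif. No match of either motif was present in the windows of PSAT1, MTHFD2 and SHMT1, which fell as well, or in that of PHGDH. Counted by window, CACGTG was present in 4 of the 9 member windows, 3 of them overlapping windows of MTHFD1L, and in 7.26% of all 35116 RefSeq promoter windows of the same length. TGATGNAA was present in 3 of the 9, all of MTHFD1L, and in 3.62% of all windows. The overlapping windows of MTHFD1L repeat the same sites. Counted by gene, CACGTG was present in 2 of the 6 matched members and TGATGNAA in 1 of the 6. The shares over all promoters are per window, and a gene with several windows can match more often. They cannot be set beside these counts by gene, so no excess of a motif is read from them. The motifs do not overlap in the window shown. A match is a description of the letters only, since no binding was measured.

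The RNA of the factors themselves moved in opposite directions. ATF4, an activator of serine synthesis genes under amino acid stress, rose from 562 ± 60.9 to 1291 ± 53.0 CPM (SD, n = 3), with a log2 fold change of 1.20 (SE 0.07, adjusted p = 8.8e-16, edgeR). MYC, which is also known to activate serine and folate genes, fell from 639 ± 27.0 to 86.1 ± 7.03 CPM (SD, n = 3), with a log2 fold change of −2.89 (SE 0.08, adjusted p = 3.2e-25, edgeR). Their part in the members' values was not tested.

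Levels of different genes can be compared only per length, for which the deposited FPKM values were used. In DMSO-treated cells PSAT1 was the highest member at 271 ± 9.06 FPKM (SD, n = 3), followed by MTHFD2 at 237 ± 18.8 and SHMT2 at 205 ± 0.299. PHGDH at 86.9 ± 2.68 and MTHFD1L at 72.3 ± 0.968 FPKM formed the middle. SLC25A32 at 48.1 ± 3.76 and PSPH at 47.1 ± 0.603 FPKM overlapped, and MTHFD1 at 41.2 ± 1.77 and SHMT1 at 21.9 ± 1.58 FPKM were the lowest. Even SHMT1 was above 67.1% of the 16730 genes in the FPKM table, and PSAT1 was above 97.9%.

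The order changed in THZ1-treated cells. SHMT2 was then first at 109 ± 8.36 FPKM (SD, n = 3), and PSAT1 at 84.9 ± 10.01 overlapped PHGDH at 78.7 ± 6.82. MTHFD2 had come down to 52.8 ± 4.06 FPKM. MTHFD1L at 18.7 ± 2.02, SLC25A32 at 15.6 ± 1.76 and PSPH at 15.4 ± 2.31 FPKM overlapped each with the next. SHMT1 at 8.53 ± 0.180 and MTHFD1 at 2.62 ± 0.270 FPKM exchanged the last places. As a share of the DMSO level in FPKM, 90.6% of PHGDH and 6.36% of MTHFD1 remained. The sorted FPKM values were nearly the same in libraries of a treatment, so the spread in these values may be understated.

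**Figure D3:**
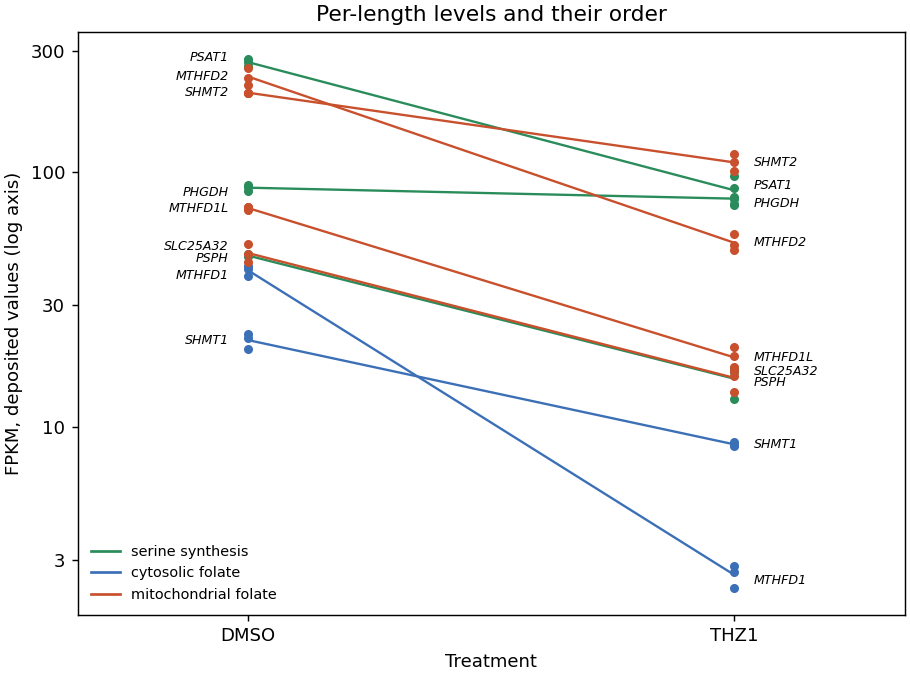
Deposited FPKM of the 9 members on a log axis, with a point for each of 3 DMSO-treated and 3 THZ1-treated libraries, lines joining the treatment means and colors for the place in the pathway. PSAT1 is first with 271 FPKM in DMSO-treated cells, SHMT2 is first with 109 FPKM in THZ1-treated cells, and MTHFD1 falls from 41.2 to 2.62 FPKM.

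Ratios of the counts of paired enzymes within a library do not depend on how the libraries were scaled. They are not corrected for length, so only their change is read. For 6 ratios, each tested by a two-sided exact permutation test, the groups did not overlap. In each test p was 0.1, the smallest that 3 libraries against 3 allow (0.1 after adjustment over the 6). No ratio could therefore pass a threshold of 0.05. Separate groups were common in these data. For single genes, the THZ1-treated libraries all lay below the DMSO-treated libraries for 6859 and all above for 7222 of the 16622 tested.

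PSAT1 to PHGDH was 0.718, 0.749 and 0.690 in the DMSO-treated libraries and 0.265, 0.254 and 0.256 in the THZ1-treated libraries, a 2.78-fold fall. PSPH to PHGDH was 0.164, 0.176 and 0.157 against 0.0596, 0.0677 and 0.0527, a 2.77-fold fall. The later steps of serine synthesis thus became lower relative to the first step by nearly equal factors.

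The mitochondrial enzymes rose relative to MTHFD1. MTHFD2 to MTHFD1 was 2.21, 2.14 and 2.02 in DMSO-treated cells and 6.56, 4.94 and 5.06 in THZ1-treated cells, a 2.58-fold difference. MTHFD1L to MTHFD1 was 0.733, 0.678 and 0.719 against 2.49, 1.71 and 2.06, a 2.91-fold difference. SHMT2 to SHMT1 was 5.47, 5.76 and 5.59 against 8.03, 7.40 and 6.68, a smaller, 1.31-fold difference.

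MTHFD2 can also be set against MTHFD2L, its mitochondrial relative. That ratio was 22.7, 21.7 and 17.9 in DMSO-treated libraries and 7.26, 7.73 and 7.67 in THZ1-treated libraries, a 2.74-fold fall. MTHFD2L itself had 18.7 ± 2.10 and 13.0 ± 1.5 CPM (SD, n = 3), with a log2 fold change of −0.52 (SE 0.14, adjusted p = 0.0010, edgeR). Both values differed on the deposited FPKM scale: the log2 fold change of MTHFD2L was −1.12 with a pseudocount of 1 and −1.39 with 0.1 in limma, and the log2 difference of the ratio was −1.03 and −0.78, against −1.45 from counts. Exons of MTHFD2L overlap the lncRNA ENSG00000269559 on the opposite strand, so its reads are uncertain. That lncRNA had 53, 43 and 64 counts in DMSO-treated libraries and 34, 33 and 15 in THZ1-treated libraries.

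**Figure D4:**
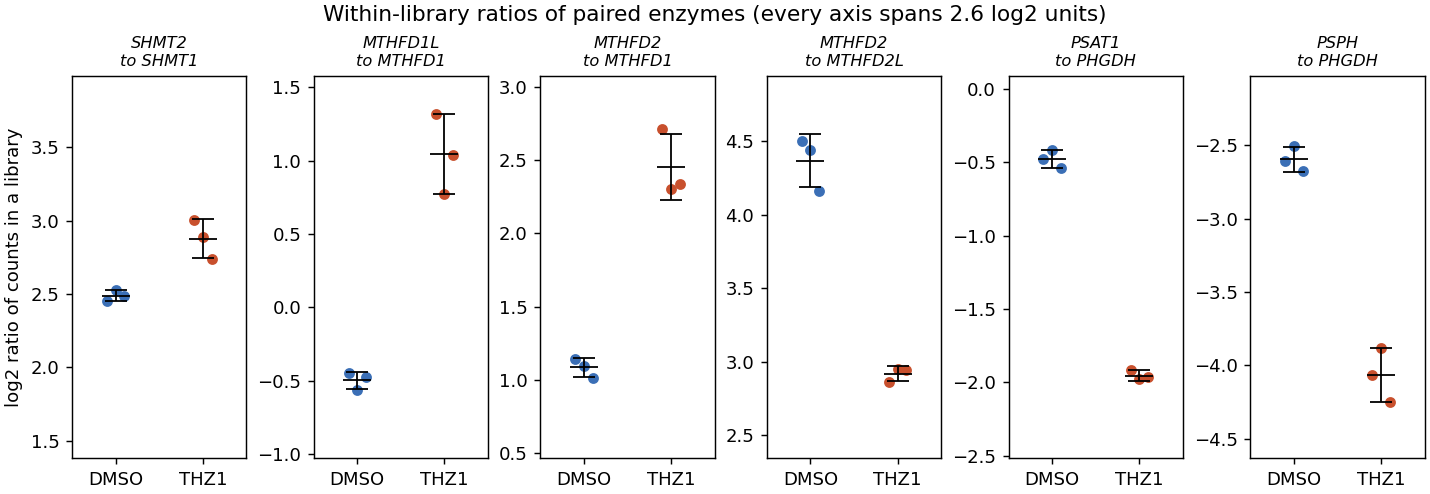
Log2 of 6 within-library count ratios, not corrected for gene length, with a point for each DMSO-treated and THZ1-treated library and bars for the mean ± SD (n = 3), on axes that start at different values and span the same range. The groups are apart in every ratio, with THZ1 minus DMSO differences from −1.48 for PSAT1 to PHGDH up to 1.54 for MTHFD1L to MTHFD1. Separate groups were common among single genes too.

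Outside the members, 39 genes of the same pathways were listed by role and 31 were tested. Of these 23 were lower, 7 higher and 1, SLC46A1, was not called, with a median log2 fold change of −0.77 against 0.03 over all genes tested. The listed genes called lower and higher can be read against the 41.1% and 43.5% of all genes. ALDH1L1, ALDH1L2, FTCD, FOLR1, FOLR2, DMGDH, SDS and SDSL had too few counts to be tested. All 4 tested users of formyl or methyl folate were lower. Among them ATIC, which completes the purine ring, fell from 143 ± 7.81 to 44.3 ± 3.49 CPM (SD, n = 3), a log2 fold change of −1.69 (SE 0.08, adjusted p = 2.5e-18, edgeR). Of 4 tested genes of folate uptake and retention 3 were lower and 0 higher.

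Serine and glycine transporters were lower in 5 of 6 cases and higher in 1. SLC1A4, a carrier of neutral amino acids including serine, fell from 46.0 ± 2.24 to 9.24 ± 0.958 CPM (SD, n = 3), a log2 fold change of −2.32 (SE 0.12, adjusted p = 1.1e-17, edgeR). Of 5 tested users of serine 4 were lower and 1 was higher. The latter was SPTLC1, a subunit of serine palmitoyltransferase, at 42.9 ± 3.43 and 82.8 ± 3.95 CPM (SD, n = 3), with a log2 fold change of 0.95 (SE 0.09, adjusted p = 9.5e-12, edgeR).

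Of 5 tested genes of glycine cleavage and methylglycine oxidation 3 were lower and 2 higher. In the cleavage system itself GLDC, GCSH and DLD were lower and AMT was higher, and the other higher gene was SARDH, which oxidises methylglycine. GCSH, DLD and SARDH were named after their values were seen. GLDC, the glycine decarboxylase of the system, fell from 19.7 ± 1.74 to 2.47 ± 0.667 CPM (SD, n = 3), a log2 fold change of −2.99 (SE 0.19, adjusted p = 3.7e-15, edgeR). AMT, the aminomethyltransferase, rose from 7.08 ± 0.507 to 28.5 ± 1.59 CPM (SD, n = 3), a log2 fold change of 2.01 (SE 0.13, adjusted p = 6.2e-15, edgeR). AMT shares exons with NICN1 on the same strand, so its reads are uncertain. The groups did not overlap for either gene.

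Among the other enzymes of folate interconversion 2 of 3 tested were lower and 1 was higher. The last, MTHFS, was chosen after its values were seen. It had 3, 3 and 9 counts in DMSO-treated libraries and 55, 75 and 76 in THZ1-treated libraries, with a log2 fold change of 4.44 (SE 0.33, adjusted p = 1.3e-13, edgeR). MTHFS shares exons with ST20-MTHFS and ENSG00000261229 on the same strand, so its reads are uncertain, and its DMSO counts were low.

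**Figure D5:**
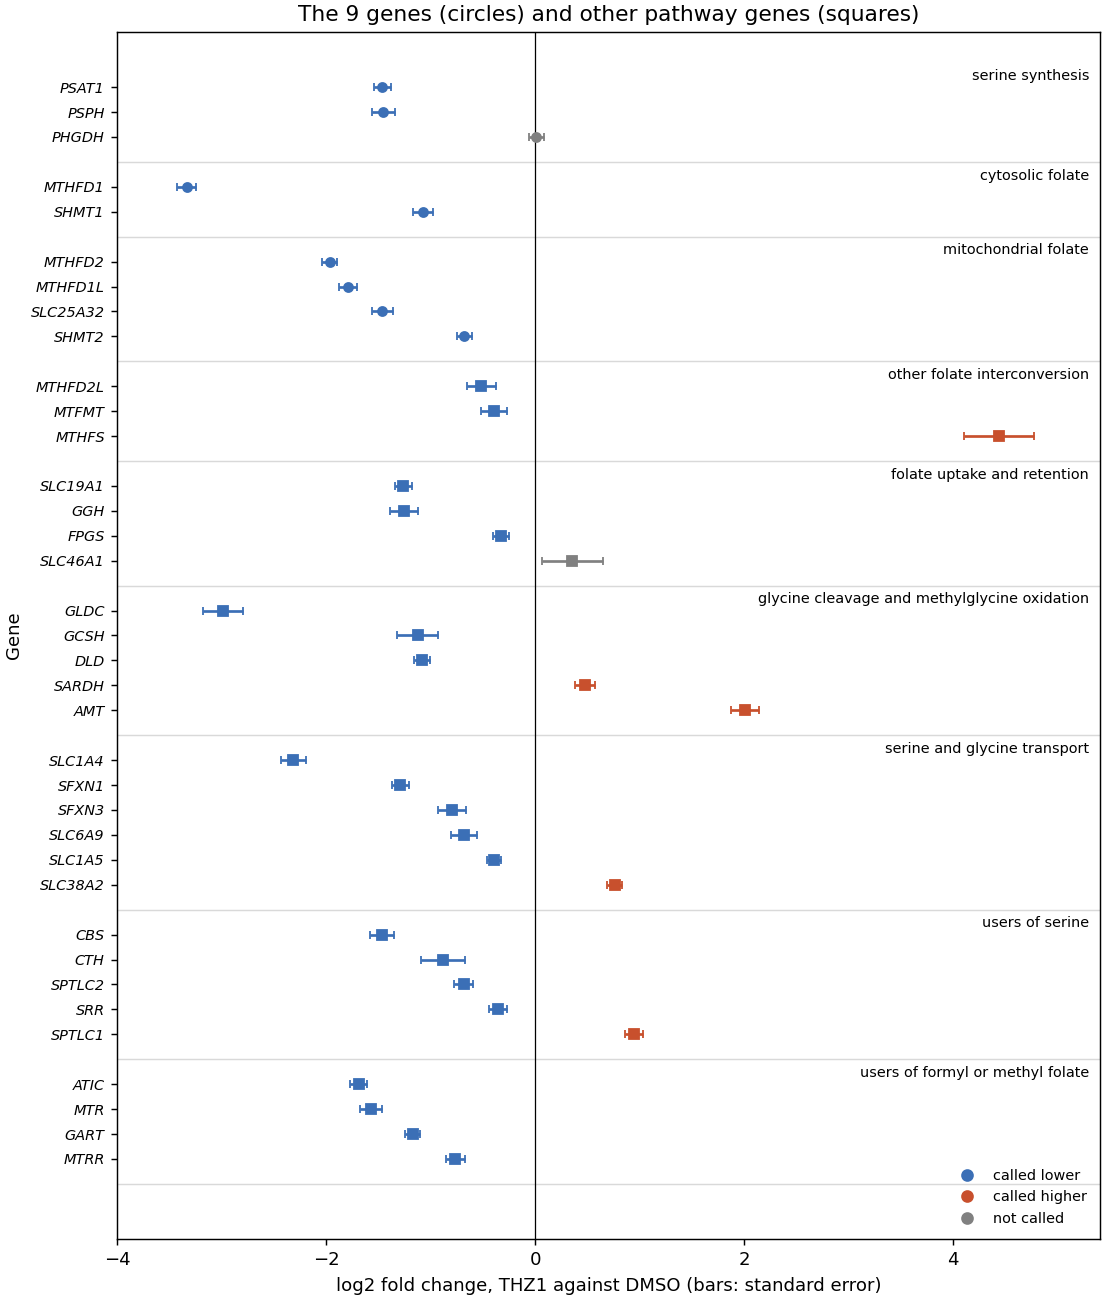
Log2 fold change (THZ1 over DMSO) with its standard error for the 9 members (circles) and 27 other tested genes of the pathway (squares), grouped by role and colored by call. Of the 27, 21 lie at called negative values and 5 at called positive values, from −2.99 for GLDC to 4.44 for MTHFS.

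The genes whose profile over the 6 libraries was most like that of PHGDH were RANGRF, KHNYN and ACAA1, with root mean square distances of 0.0337, 0.0405 and 0.0410 on the log2 CPM scale, each profile centred on its DMSO mean. Among 9573 genes compared, 1245 were within 0.2 of PHGDH, so a flat profile of this kind was common.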

How the data were processed

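RNA-SEQ data of 6 libraries of NALM6 cells were analysed, 3 treated with DMSO and 3 with 500 nM of THZ1 for 24 h. According to the methods and the submitters' processing notes, the authors filtered the reads, mapped them to GRCh37 with STAR, and deposited raw counts per gene from htseq-count. The authors also deposited expression values for 16730 genes, FPKM by RSEM, which were read as log2(FPKM + 1). The sorted values are nearly the same within a treatment, through a step that is not given in the sources used here, nor are the annotation and strand setting. Columns of the authors' fold changes, p-values and FDR were not used.

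Counts were filtered (filterByExpr, minimum count 10, minimum total 15), scaled by TMM and tested two-sided by the quasi-likelihood test of edgeR, adjusted by Benjamini-Hochberg over 16622 genes. CPM are counts per 1000000 after TMM. Count ratios were tested by exact permutation. The chi-square per gene between replicate libraries was 1.81 to 9.35, above sampling noise. Gene positions came from GENCODE 44 on GRCh37 and promoter sequences from RefSeq GRCh38.p14, and builds were not mixed.

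The members, the pathway list and the markers were chosen with earlier results of these data known. The text names every member, ATF4, MYC, the genes of a ratio, and the 3 highest and 3 lowest called pathway genes of mean 5 CPM or more (except 1 that is not reported here), and the 3 genes closest to PHGDH of mean 10 CPM or more. As alternatives, DESeq2, scaling by RLE, by upper quartiles or by library sizes alone, a stricter filter (10 counts in each library) or none, a replicate block, dropping single libraries, and limma on FPKM (pseudocount 1 or 0.1, minimum mean 0.1 or 1) were run. A fit without mitochondrially encoded genes was chosen after seeing the data. The fits were tested on simulated data in which few genes changed, with folds drawn evenly up and down. Far more genes were called in the real data, so the simulation did not test the scaling for such data. R 4.3.3, edgeR 4.0.16, limma 3.58.1, DESeq2 1.42.0, Python 3.11.15, numpy 2.4.6, pandas 2.3.3, scipy 1.17.1 and matplotlib 3.10.9 were used.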

Additional observations from a re-analysis of the deposited data

How the results depend on the processing

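The 8 members that fell kept their direction and their call in all 17 alternatives, with MTHFD1 between −3.93 and −3.14 and SHMT2 between −0.93 and −0.49 (log2). ATF4, MYC, MTHFD2L, GLDC, SLC1A4, ATIC, SPTLC1 and AMT did so too, and the other pathway genes were not followed one by one through the alternatives. PHGDH did not. It was called higher with upper quartile factors, which made 1 member higher (0.20), and was negative with library sizes alone (−0.24, called lower, 9 members lower), with no filter (−0.0799) and in limma on FPKM with a pseudocount of 1 (−0.14 with a mean of at least 0.1 and −0.14 with a mean of at least 1) or 0.1 (−0.15). With single libraries dropped PHGDH ranged from −0.0747 to 0.0368, and it was negative without DMSO replicate 1 (−0.01), DMSO replicate 2 (−0.06) or THZ1 replicate 1 (−0.0747). The cause was not tested, other than that the scalings moved the median of all genes alike. Members lower by 1.5 numbered 6 with library sizes alone, 6 with no filter and 6 in each of the 3 limma settings, and 3 to 5 with a library left out.

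The labels do not say whether same-numbered libraries belong together. Their deviations had correlations of −0.00400, 0.000969 and 0.0206 over all genes tested. Sampling noise can hide a small shared part, so these values do not settle the pairing. With the replicate block 6786 genes were lower and 7181 higher over all genes, 8 members were lower and PHGDH was 0.01. Where every library needed at least 10 counts, 1178 of 12808 genes tested were lower by 1.5 and 1821 higher. With no filter, 2898 of 30884 were lower by 1.5 and 6996 higher. In the main fit 2142 and 4088 of 16622 were. The totals differ, so these counts cannot be compared as they stand. On the deposited FPKM values the log2 difference of MTHFD1L to MTHFD1 became 1.98 and of MTHFD2 to MTHFD1 1.76 with a pseudocount of 0.1, and MTHFD2 to MTHFD2L became −1.03 with 1 and −0.78 with 0.1. The interval of PHGDH, 0.907-fold to 1.11-fold, holds for TMM scaling alone.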
